A study of Mus musculus with 12 samples.

Results

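The cytosolic ribosome is built from ribosomal RNA and a set of small, basic proteins, each of which is present once per particle, apart from the acidic P proteins that form the stalk of the large subunit. Most of the mRNAs for these proteins begin with a 5' terminal oligopyrimidine (TOP) tract, a C at the cap followed by a run of pyrimidines, through which mTORC1 signalling controls their translation. In sensory neurons some of these mRNAs are carried into axons and read there. The genes described here are the 75 gene names in the count table made of Rpl, Rps or Rplp, a number and at most 1 letter a or x, out of 44345 gene names. All 75 passed the filter on low counts, with which 16238 genes were tested, and the lowest count of any of them in any sample was 536 reads. They comprise 29 genes of the small subunit (Rps), 43 of the large subunit (Rpl) and the 3 stalk genes Rplp0, Rplp1 and Rplp2. Members of the ribosome under other names, such as Rpsa or Rps3a1, fall outside the rule and are given separately.

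The RNA came from sciatic dorsal root ganglia (DRG, L4 to L6) of C57BL/6 mice aged 5 to 8 weeks. Mice spent 10 days in standard housing (SH) or in an enriched environment (EE), and then had a sham operation or sciatic nerve axotomy (SNA), with ganglia taken 24 h later. The groups were SH Sham (standard housing, sham), SH SNA (standard housing, axotomy), EE Sham (enriched, sham) and EE SNA (enriched, axotomy), and the labels name no transgene or drug in any of them. Each group had 3 samples, every sample being whole ganglia from both sides of 2 mice, so that neurons, glia, immune cells and vessels were sequenced together. According to its text, the study took EE Sham from an earlier dataset, while the labels list it beside the others with no date. A difference between experiments therefore cannot be told apart from housing in EE Sham against SH Sham, or from surgery in EE SNA against EE Sham. The study compared each condition with its respective SH sham, without saying to which dataset the SH Sham samples here belong. The same limit may therefore hold for SH SNA or EE SNA against SH Sham.

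The libraries held 11343579 to 22871460 reads on genes. TMM scaling factors lay between 0.978 and 1.02. Markers of sensory neurons summed to 10027 to 10913 CPM (reads per 1000000 reads on genes) in SH Sham, so the labelled tissue carries its defining genes. After SNA the 6 injury genes Atf3, Sprr1a, Gap43, Sox11, Jun and Gal all rose in both housings, with a median log2 fold change of 1.36 in SH and 1.04 in EE. Values below are CPM after TMM scaling, and fold changes are log2 ratios from edgeR with their standard error (the uncertainty of the estimate over samples) and a Benjamini-Hochberg adjusted p, two-sided, called below 0.05.

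The starts of these genes share features that their names did not select for. A RefSeq start (GRCm38.p6) was found for 55 of the 75. For the shares below, a gene counted if any of its annotated starts had the feature, and the number of starts per gene was not matched. At 13 of them (23.6%) an annotated first base was a C followed by at least 4 pyrimidines, against 2.97% of 26970 other genes. A C followed by at least 7 pyrimidines began within 25 bases of the start in 34 (61.8%), against 19.3%. With at least 4 pyrimidines the shares were 85.5% and 59.3%. The windows printed here run 5' to 3' on the gene's strand over 30 bases with the annotated start in the middle, and capitals mark the longest tract of a C and at least 4 pyrimidines that begins within 25 bases of it. Where a gene has several annotated starts, the one with the longest tract is shown. The first 5 belong to genes that rose after SNA over both housings. Rps6, Rps27 and Rplp2 follow as genes whose products or values are described below, and Rpl38, Rpl28 and Rpl15 as genes that did not pass in any comparison.

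Rps15a (chr7:118116133-118116162, minus strand): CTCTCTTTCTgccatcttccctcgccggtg
Rps24 (chr14:24490663-24490692, plus strand): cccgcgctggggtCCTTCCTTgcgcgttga
Rps2 (chr17:24720048-24720077, plus strand): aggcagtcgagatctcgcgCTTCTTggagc
Rpl12 (chr2:32961697-32961726, plus strand): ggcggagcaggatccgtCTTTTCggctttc
Rpl7a (chr2:26910792-26910821, plus strand): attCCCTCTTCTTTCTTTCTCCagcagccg
Rps6 (chr4:86857353-86857382, minus strand): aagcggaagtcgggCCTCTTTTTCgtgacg
Rps27 (chr3:90213634-90213663, minus strand): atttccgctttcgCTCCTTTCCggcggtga
Rplp2 (chr7:141447636-141447665, plus strand): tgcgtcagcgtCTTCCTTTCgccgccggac
Rpl38 (chr11:114668565-114668594, plus strand): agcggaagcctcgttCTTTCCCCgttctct
Rpl28 (chr7:4792950-4792979, plus strand): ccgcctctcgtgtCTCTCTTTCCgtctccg
Rpl15 (chr14:18270972-18271001, minus strand): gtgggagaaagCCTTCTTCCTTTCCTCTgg

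Among these windows, printed with the values known, the tract was 10 bases in Rps15a, 6 in Rpl12 and 19 in Rpl7a, which passed. It was 17 bases in Rpl15, whose estimate after SNA was the smallest of all 75. A relation between tract length and the values after SNA was not tested. The letters CCGGAAG, the core bound by ETS factors, lay on either strand of the 300-base window around the start in 22 of 55 (40.0%), against 9.87% of other genes. TATAAA was found 20 to 40 bases before the start, on the gene's strand, in 0 of 55 and in 2.25% of other genes. These are matches of letters at annotated starts, which can lie some bases from the start used in DRG. Another shared feature is that 28 of the 75 genes (37.3%) hold at least 1 small nucleolar RNA gene, 53 in all, against 1.37% of 14195 other tested protein-coding genes. Small nucleolar RNAs guide the modification of ribosomal RNA and are cut from introns. Rpl4 holds 5 of them and Rpl13a 4. The genes are spread over 19 chromosomes, with 14 on chromosome 7 and 4 on the X.

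In uninjured ganglia in standard housing the family was among the most abundant in the tissue. In the deposited FPKM, which divide reads by exon length and library total, the median of the 75 genes was 113 in SH Sham against 5.22 over all 16103 tested genes listed on a single line, and 69 of 75 lay above the 90th percentile of those genes (38.5 FPKM). Rplp1, which forms part of the stalk that recruits elongation factors, was highest at 653 ± 23.5 FPKM (SD, n = 3), followed by Rps15 at 331 ± 15.5 and Rpl4 at 317 ± 12.5. Rps19 (21.2 ± 1.41), a small subunit protein whose loss causes Diamond-Blackfan anaemia in people, Rpl18 (23.4 ± 2.5) and Rps15a (24.2 ± 1.07) were lowest. Neighbours in this order often did not differ beyond their spread: Rps15 and Rpl4 overlapped, as did Rpl18 and Rps15a. The medians of the small subunit (114 FPKM) and of the large subunit with the stalk (107 FPKM) were close.

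The 30.8-fold range from Rplp1 to Rps19 followed the length by which the reads were divided. Over the 75 genes, FPKM and the exon length implied by the ratio of counts to FPKM had a Spearman correlation of −0.81, a description across genes in which length enters both measures. These lengths ran from 256 bases (Rps27) to 6296 bases (Rps15a), although the coding sequence of Rps15a has only 390 bases. The annotated exons of Rps15a add up to 6270 bases. When CPM were divided by coding length instead, Rps15a rose from rank 73 to rank 21 of 75, the range from highest to lowest narrowed to 10.5-fold, and Rpl41, Rpl39 and Rplp1 were highest at 1632, 947 and 943 CPM per kilobase. The counts include reads on untranslated regions, so this scale is not a level per length of mRNA. The Spearman correlation between both scales was 0.286. Rps19 was last on both.

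**Figure D1:**
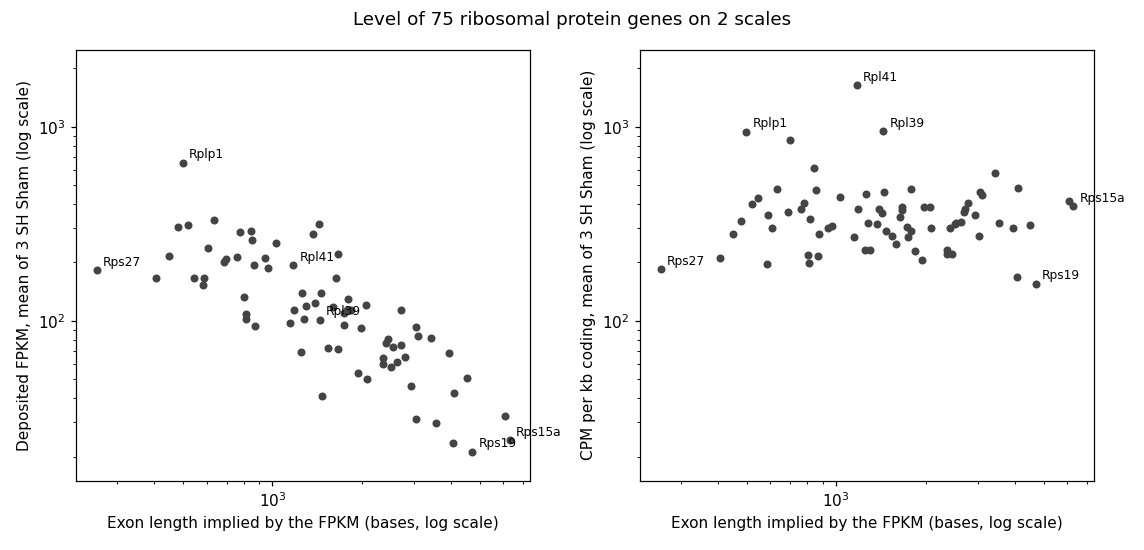
Mean level of the 75 ribosomal protein genes in the 3 SH Sham samples against the exon length implied by the deposited FPKM, all axes on log scales, with 1 point per gene. On the left (FPKM) levels fall with length, from Rplp1 at 653 to Rps19 at 21.2. On the right (CPM per kilobase of coding sequence) they do not, and Rpl41 is highest at 1632.

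Reads from these genes are hard to place, since the genome holds many copies without introns. In 70 of 75 genes at least 1 stretch of 100 bases of the mRNA also occurred in a transcript of another gene, and in 34 over 50% of stretches did. Some of these stretches may lie where a neighbouring gene overlaps at the same locus, as exons of Rpl35 and Rpl13a do. Such overlap was not separated from copies elsewhere in the genome, so these counts do not measure the copies alone. Reads were counted on genes or left out as ambiguous, as not unique or as matching no feature. Of these reads together, 8.49% to 9.28% per sample were left out as not unique, so the levels of genes with shared stretches may be too low. Reads matching no feature made up 46.7% to 47.6%. The table lists 212 named pseudogenes of 52 of the genes, which together held 0.132% of the reads on the genes themselves. Exon bases of 18 genes overlap a gene on the other strand, Rpl10a, Rpl12, Rpl15, Rpl5, Rpl28, Rps2, Rps27a and Rps28 being among those described here, and the strand setting of the counting is not given in the sources used here. Rpl24 stands apart, because its FPKM line carries the identifier of its neighbour Zbtb11 and implies 6062 exon bases against 1030 annotated, so reads of Zbtb11 may be counted with it.

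As a whole the family took a slightly larger share of the reads after SNA, without overlap in standard housing and with overlap after enrichment. The 75 genes took 1.26%, 1.35% and 1.34% of the reads on genes in the 3 SH Sham samples and 1.39%, 1.38% and 1.41% in SH SNA, so that every SH SNA sample lay above every SH Sham sample. In EE Sham the shares were 1.14%, 1.48% and 1.33%, and in EE SNA 1.36%, 1.46% and 1.53%, so these groups overlapped. As a mean the share was 1.31% ± 0.0483 (SD, n = 3) in SH Sham, 1.39% ± 0.0143 in SH SNA, 1.32% ± 0.169 in EE Sham and 1.45% ± 0.085 in EE SNA. The spread within EE Sham was the widest of the 4 groups, and its difference between replicates 1 and 2 exceeded any difference between group means. In bulk tissue, a change in the number of cells of a type and a change in RNA per cell cannot be told apart.

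Most of the genes followed this shift. Relative to the mean of SH Sham, the median of the 75 genes (log2 units) was −0.056, 0.038 and 0.026 in the SH Sham samples, 0.084, 0.095 and 0.10 in SH SNA, −0.17, 0.16 and 0.016 in EE Sham and 0.081, 0.15 and 0.23 in EE SNA. Of the 75 genes, 69, 70 and 63 were above their SH Sham mean in the SH SNA samples. EE Sham replicate 1 was the lowest of all 12 samples for 62 genes and had only 3 above the SH Sham mean, whereas EE Sham replicate 2 had 74. EE SNA replicate 3 was the highest of the 12 for 49 genes and EE Sham replicate 2 for 14. After group means were removed, 66.0% of the remaining variance of the 75 genes lay on a single component, so much of the difference between replicates was shared by the family. The small and large subunit medians in EE Sham replicate 1 were −0.17 and −0.16, and in EE SNA replicate 3 0.22 and 0.23.

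**Figure D2:**
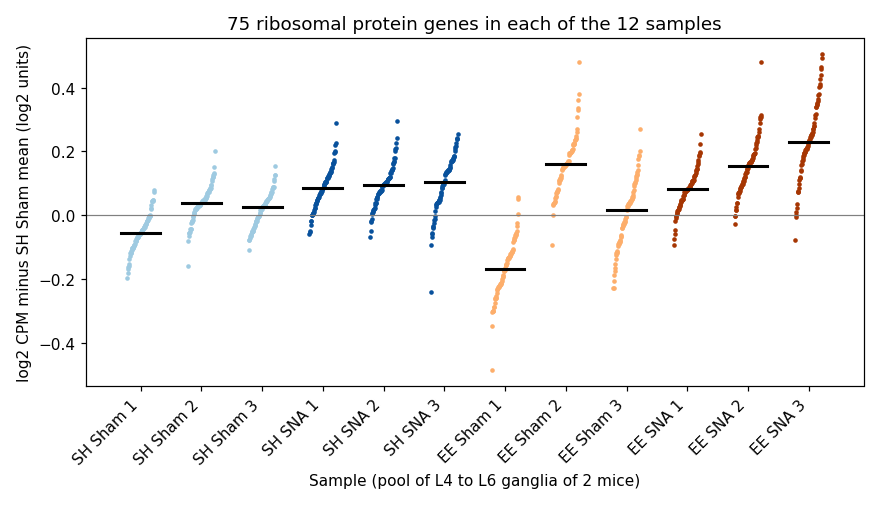
Each point is 1 of the 75 ribosomal protein genes in 1 of the 12 samples, as log2 CPM minus the gene's mean in SH Sham, and black bars are medians over the genes. The 3 SH SNA medians lie between 0.084 and 0.10, while those of EE Sham spread from −0.17 to 0.16.

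Markers of Schwann cells, macrophages and endothelium had their lowest and highest sums in the samples where the family median was lowest and highest. The same held for fibroblast markers, whose ranges are given among the other observations. The 7 Schwann cell markers summed to 7338 to 8905 CPM in SH Sham, 7829 to 11404 in SH SNA, 6554 to 9071 in EE Sham and 9466 to 12267 in EE SNA, with the lowest sum of all 12 samples in EE Sham replicate 1 and the highest in EE SNA replicate 3, the same samples as for the ribosomal proteins. For the 10 macrophage markers in the table the ranges were 79.7 to 83.3, 89.5 to 114, 68.7 to 84.5 and 92.9 to 131 CPM in the same order of groups, and again EE Sham replicate 1 was lowest and EE SNA replicate 3 highest. Endothelial markers summed to 66.2 to 87.4 CPM in SH Sham, 77.4 to 88.1 in SH SNA, 62.8 to 79.2 in EE Sham and 85.7 to 97.2 in EE SNA. The SH groups overlapped for these markers, and the extremes were again EE Sham replicate 1 and EE SNA replicate 3. Sensory neuron markers, in contrast, ranged over 10027 to 10913 CPM in SH Sham, 9316 to 10065 in SH SNA, 9729 to 10167 in EE Sham and 9498 to 9597 in EE SNA. Over both housings 6 of 7 Schwann cell markers, 6 of 10 macrophage markers and 1 of 5 endothelial markers rose, and 6 of 14 sensory neuron markers fell, the rest not passing, where 11.4% of all genes were called higher and 11% lower. None of the markers in the table for these 4 lists was at 0 in every sample. Of 5 satellite glia markers, 1 rose and 1 fell over both housings, with a median log2 fold change of 0.011. Their sum was lowest in EE Sham replicate 1 but highest in SH SNA replicate 1. The share of reads left uncounted as ambiguous between genes was 0.314% in EE Sham replicate 1, the lowest of all samples, and 0.361% in EE SNA replicate 3, with 0.327% to 0.347% in SH Sham and 0.332% to 0.37% in SH SNA. The part of these markers and of this share in the ribosomal protein values was not tested.

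**Figure D3:**
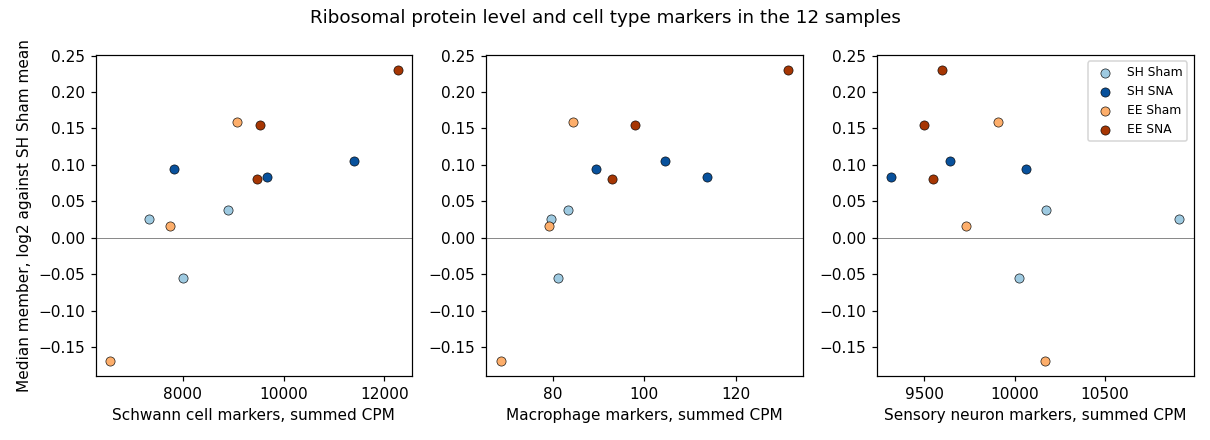
Median of the 75 ribosomal protein genes relative to the SH Sham mean (log2 units) against the summed CPM of Schwann cell, macrophage and sensory neuron markers, with 1 point per sample, coloured by group. EE Sham replicate 1 has the lowest and EE SNA replicate 3 the highest values in the first pair of panels.

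In standard housing most of these genes had slightly higher estimates after SNA, and 2 passed the test. Of the 75 genes, 72 had a higher mean after SNA, with a median log2 fold change of 0.095 (6.79% higher) and a range from −0.040 to 0.22, while the median over all 16238 genes was 0.0047 and 51.0% of them were higher. After adjustment 2 genes rose, Rps3 and Rps15a, and none fell, which is 2.67% of the 75 against 6.06% of all genes called higher. At an unadjusted p under 0.05, 16 were higher (21.3%, background 13.4%) and 0 lower. In 29 genes all 3 SH SNA samples lay above all 3 SH Sham samples, against 14.3% of all genes. The count past adjustment is thus below the background and the count without overlap above it. Neither gene passed without SH Sham replicate 1 or 2 or without SH SNA replicate 1 or 3, each of which left 0 calls. In these fits 1207 to 1464 of all 16238 genes were called in either direction, against 1823 with all samples. The median 95% interval reached 0.12 to either side, more than the median fold change itself, and no gene had an upper bound above 0.38.

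In the enriched environment, all 75 genes had a higher mean after SNA, with a median of 0.15 (10.6% higher) and a range from 0.0097 to 0.25, against a median of 0.0039 over all genes. No gene passed adjustment, where 2.51% of all genes were called higher, and the smallest adjusted p was 0.091, for Rpl12. At an unadjusted p under 0.05, 8 genes were higher (10.7%, background 10.3%) and 0 lower, and 8 did not overlap between groups (background 13.4%). Among the smallest p, which did not pass, were those of Rpl12 at 0.23 (standard error 0.070, adjusted p = 0.091) and Rplp0 at 0.21 (standard error 0.077, adjusted p = 0.141). This comparison rests on the wide EE Sham group, for which a difference between experiments and an effect of surgery cannot be told apart. Without EE Sham replicate 1 the median was 0.052 and 67 of 75 genes were higher, and without EE Sham replicate 2 it was 0.24 with 9 genes past adjustment. In the latter fit 1082 of all 16238 genes were called in either direction, against 785 with all samples.

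In EE, fold changes after SNA also differed by gene length. In EE SNA against EE Sham, genes in the shortest 10% by exon length, ribosomal protein genes left out, had a median log2 fold change of 0.042 and those in the longest 10% −0.058. In SH SNA against SH Sham both were near 0, at 0.0072 and 0.0069. Of the 75 genes, 59 belong to the shortest 30%, and their median was 0.14 in EE and 0.093 in SH, while the 16 longer ones had 0.16 and 0.11. The ribosomal protein medians were thus above those of short genes in both housings. The part of length in the EE values was not tested.

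The 2 axotomy comparisons share no sample, and 72 of 75 genes were higher in both. In 61 genes the estimate was larger in EE. The difference itself was tested in a fit of 12 samples with a term for housing, one for surgery and one for their product. The median of that last term was 0.058, 64 genes were positive, none passed adjustment (0 of 16238 genes did, 0.0%) and 1, Rpl24, was higher at an unadjusted p under 0.05, or 1.33% against 1.35% of all genes. The 3 smallest p, none passing, were those of Rpl24 at 0.18 (standard error 0.083, adjusted p = 0.99995), Rpl28 at 0.21 (standard error 0.11, adjusted p = 0.99995) and Rpl38 at 0.17 (standard error 0.12, adjusted p = 0.99995). A larger rise in EE was therefore not shown. Its direction also turned on a single library, the median being −0.030 without EE Sham replicate 1 and 0.14 without EE Sham replicate 2. Across the 75 genes the 2 fold changes had a Pearson correlation of 0.281 and a Spearman correlation of 0.284, a description over genes that shift together. In 5 genes, Rpl10a, Rpl12, Rpl7a, Rplp0 and Rps15a, all SNA samples lay above all Sham samples of the same housing in both housings, a share near that of all genes (6.81%).

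**Figure D4:**
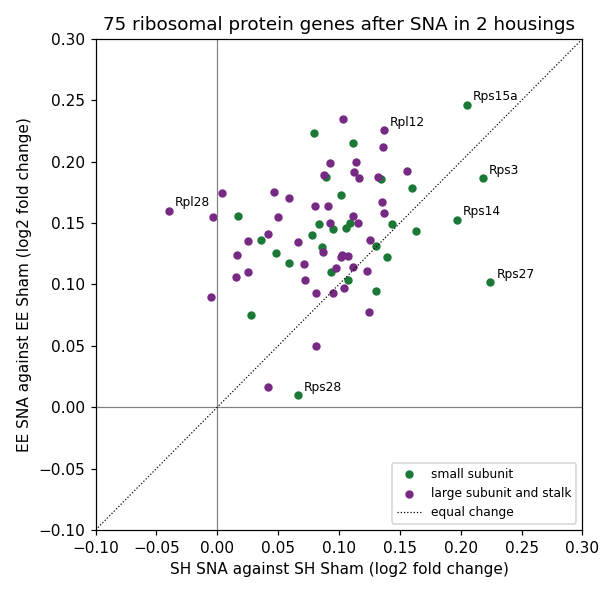
Log2 fold change after SNA in standard housing (x axis) and in the enriched environment (y axis), with 1 point per ribosomal protein gene and a dotted line where both are equal. All 75 points lie above 0 on the y axis and 72 lie above 0 on the x axis, Rpl28 being furthest to the left at −0.040.

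With both housings in one fit of 12 samples, 12 of the 75 genes rose after SNA and none fell, among them Rps15a, Rps3, Rps2 and Rps24 of the small subunit, Rpl12, Rpl7 and Rpl7a of the large subunit and Rplp0 of the stalk. All 75 had a positive estimate, from 0.031 (Rpl15) to 0.23 (Rps15a), with a median of 0.12 (8.53% higher) against 0.0071 over all genes, of which 51.6% were positive. The 12 are 16% of the family, where 11.4% of all genes were called higher, and at an unadjusted p under 0.05 35 were higher (46.7%, background 18.1%) and 0 lower. Of the 12, 5 belong to the small subunit and 7 to the large subunit and stalk, whose medians were 0.13 and 0.11. The EE Sham samples entered this fit and the interaction too, with the same limit. The count depends on single libraries. It was 4 without EE Sham replicate 1, SH Sham replicate 1 or EE SNA replicate 3 in turn. It was 6 without SH SNA replicate 1 and 7 without SH Sham replicate 3. In these fits 2962 to 3161 of all 16238 genes were called in either direction, against 3638 in the full fit. Without EE Sham replicate 2 the count was 37 of the 75, with 3770 of all genes called. Whichever sample was left out, the median stayed between 0.076 and 0.16.

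**Figure D5:**
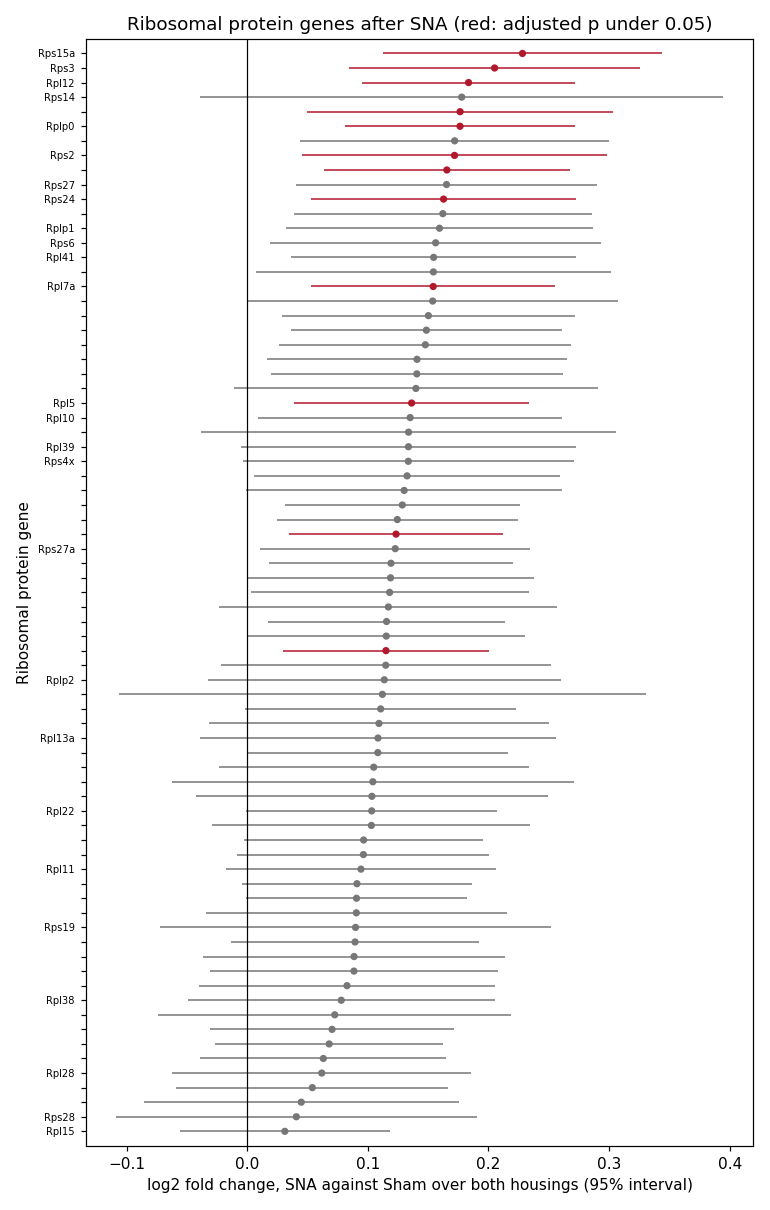
Log2 fold change of each ribosomal protein gene after SNA over both housings (point) with its 95% interval (line), ordered by size, with the 12 genes past an adjusted p of 0.05 in red and some of the genes described in the text named on the axis. All 75 points lie to the right of 0, and the interval of 40 genes includes 0.

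Among the small subunit genes the largest values were those of Rps15a and Rps3. Rps15a was at 147, 149 and 159 CPM in SH Sham, 177, 167 and 179 CPM in SH SNA, 144, 164 and 167 CPM in EE Sham and 172, 178 and 215 CPM in EE SNA. All SNA samples exceeded the Sham samples of their housing, and the change was 0.23 (standard error 0.055, adjusted p = 0.00597) over both housings and 0.21 (standard error 0.054, adjusted p = 0.0297) in SH alone. Rps15a (chromosome 7, 118104372 to 118116188 of GRCm38) encodes a protein on the small subunit's body. Rps3 (chromosome 7, 99477896 to 99483738) sits at the entry of the mRNA channel and also acts in DNA repair. Rps3 was at 211, 231 and 238 CPM in SH Sham, 259.5, 262 and 267 CPM in SH SNA, 209, 266 and 223 CPM in EE Sham and 239, 280.1 and 279 CPM in EE SNA. The SH groups were apart, whereas EE Sham replicate 2 lay above EE SNA replicate 1. Its change was 0.21 (standard error 0.057, adjusted p = 0.0157) over both housings and 0.22 (standard error 0.057, adjusted p = 0.0279) in SH.

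Rps2 and Rps24 also passed over both housings. Rps2, a protein of the mRNA entry site, changed by 0.17 (standard error 0.060, adjusted p = 0.0483). Rps2 was at 191, 214 and 218 CPM in SH Sham, 222, 232 and 241 CPM in SH SNA, 185, 232 and 218 CPM in EE Sham and 218, 234 and 270.1 CPM in EE SNA. EE Sham replicate 2 lay above EE SNA replicate 1 here too, while the SH groups did not overlap. Rps24, whose loss is another cause of Diamond-Blackfan anaemia, changed by 0.16 (standard error 0.052, adjusted p = 0.0323). Rps24 was at 252, 243 and 238 CPM in SH Sham, 279.6, 263 and 262 CPM in SH SNA, 245, 263 and 273 CPM in EE Sham and 291, 265 and 337 CPM in EE SNA. Here the SH groups were apart and the EE groups overlapped.

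Other small subunit genes singled out for their roles did not pass over both housings. Rps6, whose phosphorylation by S6 kinases is the common readout of mTORC1 activity, had an estimate of 0.16 (standard error 0.065, adjusted p = 0.0956). Rps6 was at 163, 203 and 192 CPM in SH Sham, 196, 219 and 208 CPM in SH SNA, 169, 216 and 198 CPM in EE Sham and 201, 207 and 240.2 CPM in EE SNA. SH Sham replicate 2 exceeded SH SNA replicate 1, so the groups overlapped. For Rps4x, encoded on the X chromosome, the estimate was 0.13 (standard error 0.065, adjusted p = 0.155), with SH SNA at 296, 292 and 298 CPM above SH Sham at 253, 277 and 280.4 CPM. Rps27a, made as a fusion with ubiquitin, had 0.12 (standard error 0.053, adjusted p = 0.108). Rps19 had 0.090 (standard error 0.077, adjusted p = 0.443), with means of 99.1 ± 6.11 CPM in SH Sham and 102 ± 8.21 CPM in SH SNA (SD, n = 3). At the lower end was Rps28, with 0.041 (standard error 0.071, adjusted p = 0.731).

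In the large subunit, Rpl12 had the smallest p of the family over both housings. Rpl12 (chromosome 2, 32961559 to 32965345) lies at the base of the stalk. Rpl12 was at 163, 154 and 166 CPM in SH Sham, 178, 174 and 177 CPM in SH SNA, 149, 169 and 151 CPM in EE Sham and 179, 183 and 189.5 CPM in EE SNA. All SNA samples exceeded the Sham samples of their housing, and the change was 0.18 (standard error 0.042, adjusted p = 0.00419). Rpl7 changed by 0.18 (standard error 0.060, adjusted p = 0.044) and Rpl7a by 0.15 (standard error 0.048, adjusted p = 0.0287). Rpl7 was at 295, 306 and 314 CPM in SH Sham, 350.3, 319.7 and 347 CPM in SH SNA, 278, 339 and 344 CPM in EE Sham and 332, 353 and 419 CPM in EE SNA. Rpl7a was at 219, 238 and 235 CPM in SH Sham, 254, 247 and 246 CPM in SH SNA, 227, 238 and 249 CPM in EE Sham and 259, 255 and 306 CPM in EE SNA. Rpl7a was apart in both housings and Rpl7 in SH but not in EE. The smaller changes that passed were those of Rpl5 at 0.14 (standard error 0.046, adjusted p = 0.0428), Rpl10a at 0.12 (standard error 0.042, adjusted p = 0.044) and Rpl17 at 0.12 (standard error 0.040, adjusted p = 0.0494). Rpl10a was at 149, 153 and 148 CPM in SH Sham, 163, 162 and 154 CPM in SH SNA, 144, 159 and 153 CPM in EE Sham and 168, 159 and 182 CPM in EE SNA. Rpl17 was at 220.2, 234 and 215 CPM in SH Sham, 252, 239.96 and 230.5 CPM in SH SNA, 218, 241 and 229 CPM in EE Sham and 255, 240.1 and 254 CPM in EE SNA. Rpl10a was apart in both housings, with its closest EE samples equal to 3 digits, and Rpl17 overlapped in both.

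Rpl5 and Rpl11 enter the large subunit together with 5S rRNA, and free Rpl5 and Rpl11 bind Mdm2 and stabilise p53. Rpl5 was at 269, 279.8 and 257 CPM in SH Sham, 292, 287 and 289.8 CPM in SH SNA, 258, 300.2 and 293 CPM in EE Sham and 296, 315 and 343 CPM in EE SNA. Rpl11 was at 200.1, 205 and 201 CPM in SH Sham, 213, 212 and 199 CPM in SH SNA, 174, 224 and 208 CPM in EE Sham and 213, 226 and 234 CPM in EE SNA. Rpl5 was apart in SH, whereas Rpl11 overlapped in both housings and had 0.094 (standard error 0.053, adjusted p = 0.221). Whether these partners differed from each other was not tested. Rpl5 holds 3 small nucleolar RNA genes and shares 953 exon bases with Fam69a on the other strand. Of its 100-base stretches 91.1% recur in other transcripts, a share that may include this overlap, so its counts are uncertain.

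Of the large subunit genes named for their roles, none of the others passed. Rpl10, the X-linked protein that joins the subunit last, had 0.14 (standard error 0.060, adjusted p = 0.116). Rpl13a, which can leave the ribosome and silence inflammatory mRNAs, had 0.11 (standard error 0.070, adjusted p = 0.293), and Rpl22, which has a paralog under feedback from it, had 0.10 (standard error 0.049, adjusted p = 0.147). Rpl38, needed for translation of Hox mRNAs in the embryo, had 0.078 (standard error 0.060, adjusted p = 0.389). Rpl38 was at 85.6, 95.1 and 89.1 CPM in SH Sham, 86.6, 96.3 and 85.7 CPM in SH SNA, 72.9, 94.3 and 80.0 CPM in EE Sham and 86.2, 96.0 and 94.5 CPM in EE SNA. SNA and Sham samples overlapped in both housings. Rpl39, which lines the exit tunnel, had 0.13 (standard error 0.066, adjusted p = 0.159) and Rpl41 0.15 (standard error 0.056, adjusted p = 0.0565), Rpl41 being at 234, 259 and 239 CPM in SH SNA and 224, 234 and 217 CPM in SH Sham. These SH groups did not overlap, though their closest samples were equal to 3 digits.

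The stalk genes are Rplp0, which anchors the stalk, and Rplp1 and Rplp2, whose dimers bind elongation factors. Rplp0 was at 353, 372 and 373 CPM in SH Sham, 399.9, 401 and 404 CPM in SH SNA, 329.9, 397 and 349.9 CPM in EE Sham and 412, 406 and 436 CPM in EE SNA. All SNA samples lay above the Sham samples of their housing, and Rplp0 (chromosome 5, 115559467 to 115563727) changed by 0.18 (standard error 0.045, adjusted p = 0.00899). Rplp1 was at 314, 318 and 335 CPM in SH Sham, 335, 339.6 and 371 CPM in SH SNA, 275, 362 and 331 CPM in EE Sham and 342, 368 and 408 CPM in EE SNA. Rplp2 was at 97.3, 114 and 102 CPM in SH Sham, 101, 115 and 107 CPM in SH SNA, 86.8, 117 and 93.7 CPM in EE Sham and 103, 112 and 124 CPM in EE SNA. Rplp1 had 0.16 (standard error 0.061, adjusted p = 0.0678), with no overlap in SH although its closest samples there were equal to 3 digits, and Rplp2 0.11 (standard error 0.070, adjusted p = 0.265), with overlap in both housings. In percent, the stalk genes were thus higher after SNA by 13.0%, 11.7% and 8.2% as estimated, of which the first passed.

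The rest of the family was described by range. The 23 genes at an unadjusted p under 0.05 that did not pass adjustment had estimates from 0.11 to 0.17 (Rpl27), among them Rps13, Rps20, Rpl35a, Rpl19, Rpl8 and Rpl4. The other 40 had estimates from 0.031 (Rpl15) to 0.18 (Rps14). Rpl27 was at 109.99, 111 and 113 CPM in SH Sham, 117, 123 and 119 CPM in SH SNA, 93.0, 129 and 107 CPM in EE Sham and 122, 133 and 134 CPM in EE SNA. EE Sham replicate 2 lay within the EE SNA samples, and the SH groups were apart. Rps14 had an estimate like that of Rpl7 but with more than 1.5 times the standard error, at 0.18 (standard error 0.10, adjusted p = 0.235). Rpl15 was at 188, 188 and 176 CPM in SH Sham, 196, 194 and 177 CPM in SH SNA, 190.1, 193 and 175 CPM in EE Sham and 195, 188 and 184 CPM in EE SNA. The 12 values of Rpl15 overlapped in both housings and were the least spread of the family, with an SD of 0.060 log2 units over all samples.

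Housing alone was not followed by a detectable change. In EE Sham against SH Sham no ribosomal protein gene passed (0.00616% of all genes were called higher), 45 of 75 were higher and the median was 0.017. At an unadjusted p under 0.05, 1 was higher (1.33%, background 1.4%) and 0 lower. The 3 smallest p were those of Rps27 at 0.19 (standard error 0.078, adjusted p = 0.99993), Rpl28 at −0.17 (standard error 0.093, adjusted p = 0.99993) and Rpl24 at −0.097 (standard error 0.063, adjusted p = 0.99993), none of which passed. The median 95% interval extended 0.19 to either side, which is wider than the median of 0.12 after SNA. The direction of the median followed EE Sham replicates 1 and 2, being 0.096 without the former and −0.085 without the latter.

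Between the injured groups, EE SNA against SH SNA, 70 of 75 genes were higher with a median of 0.064, but none passed (0 of 16238 genes did, 0.0%) and 1 was higher at an unadjusted p under 0.05 (1.33%, background 2.16%). The smallest p were those of Rpl5 at 0.13 (standard error 0.061, adjusted p = 0.989), Rpl27 at 0.12 (standard error 0.057, adjusted p = 0.989) and Rpl11 at 0.11 (standard error 0.057, adjusted p = 0.989). Without EE SNA replicate 3 the median was 0.029, and without EE SNA replicate 1 it was 0.098 with 6 genes higher at an unadjusted p under 0.05 and none past adjustment.

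EE SNA against SH Sham, which changes housing and surgery together and shares its groups with comparisons above, gave the largest values. Here 74 of 75 genes were higher, with a median of 0.16 (11.7% higher). After adjustment 10 rose (13.3%, background 6.87%) and none fell, and 42 were higher at an unadjusted p under 0.05 (56.0%, background 14.7%). The 5 largest were Rps15a at 0.31 (standard error 0.080, adjusted p = 0.0223), Rps27 at 0.29 (standard error 0.084, adjusted p = 0.0376), Rps24 at 0.28 (standard error 0.080, adjusted p = 0.0359), Rpl7 at 0.27 (standard error 0.078, adjusted p = 0.0406) and Rpl5 at 0.24 (standard error 0.066, adjusted p = 0.0313). Rps27 was at 47.2, 48.3 and 44.1 CPM in SH Sham, 56.7, 50.4 and 55.5 CPM in SH SNA, 48.4, 54.3 and 56.1 CPM in EE Sham and 53.2, 53.1 and 65.4 CPM in EE SNA. Rps27, a zinc finger protein of the small subunit with a p53-regulated paralog, was apart in SH and overlapped in EE. Rpl12, Rpl27, Rpl7a and Rplp0 were also among those that rose. Leaving out SH Sham replicate 1, SH Sham replicate 2 or EE SNA replicate 3 gave 0 calls each, leaving out SH Sham replicate 3 gave 1, and leaving out EE SNA replicate 2 gave 6. In these fits 1219 to 2021 of all 16238 genes were called in either direction, against 2031 with all samples.

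Other genes of the ribosome and of translation were read in the same fit over both housings, in which 11.4% of all genes were called higher and 11% lower. Of the 5 ribosomal protein genes with other names, 4 were higher, with a median of 0.12, and Gnb2l1 (Rack1), a scaffold on the small subunit, rose by 0.17 (standard error 0.053, adjusted p = 0.0268). Rpsa had 0.12 (standard error 0.051, adjusted p = 0.102) and Rps3a1 0.14 (standard error 0.053, adjusted p = 0.0672), neither passing. Of 5 tested paralogs, Rpl22l1 rose by 0.24 (standard error 0.078, adjusted p = 0.0394) and none fell. Mitochondrial ribosomal proteins, which build the separate ribosome of that organelle, had a median of −0.043, with 24 of 75 tested positive. Of the 75, 2 rose (2.67%) and 7 fell (9.33%), neither share above that of all genes. Among those that fell were Mrpl42 at −0.19 (standard error 0.051, adjusted p = 0.0117), Mrps14 at −0.19 (standard error 0.060, adjusted p = 0.0316) and Mrps5 at −0.19 (standard error 0.058, adjusted p = 0.0276), while Mrps18b at 0.17 (standard error 0.059, adjusted p = 0.0478) and Mrpl9 at 0.15 (standard error 0.053, adjusted p = 0.0496) rose.

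The elongation factors and other mRNAs with TOP tracts had a median of 0.12, with 15 of 16 positive, 6 that rose (37.5%, background 11.4%) and 0 that fell. The largest were Eef1b2, an exchange factor of elongation, at 0.34 (standard error 0.051, adjusted p = 0.000102), the poly(A)-binding protein Pabpc1 at 0.29 (standard error 0.048, adjusted p = 0.000269) and Tpt1 at 0.16 (standard error 0.047, adjusted p = 0.0241). The first pair lay above Rps15a, the largest ribosomal protein value at 0.23. Of 30 initiation factors 9 rose (30%) and 1 fell (3.33%), with a median of 0.088: the cap-binding protein Eif4e at 0.40 (standard error 0.063, adjusted p = 0.000165), Eif3b at 0.35 (standard error 0.043, adjusted p = 1.31e-05) and the anti-association factor Eif6 at 0.29 (standard error 0.056, adjusted p = 0.000986) rose, and Eif4g3 fell by 0.17. Ribosome biogenesis factors gave 11 of 52 that rose (21.2%) and 1 that fell (1.92%), with a median of 0.037, led by Surf6 at 0.38 (standard error 0.060, adjusted p = 0.000184), Sbds, which releases Eif6 from the large subunit, at 0.34 (standard error 0.045, adjusted p = 2.69e-05) and Nmd3, its export adaptor, at 0.25 (standard error 0.065, adjusted p = 0.00941), while Dkc1, the pseudouridine synthase, was at −0.20 (standard error 0.066, adjusted p = 0.0392).

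In the mTOR and S6 kinase list 4 of 27 genes rose (14.8%) and 3 fell (11.1%), with a median of −0.015, shares near the 11.4% and 11% of all genes. The largest rises were Rps6ka1, an RSK kinase that phosphorylates Rps6, at 0.86 (standard error 0.097, adjusted p = 4.89e-06), the mTORC1 inhibitor Sesn2 at 0.72 (standard error 0.11, adjusted p = 0.000132) and the translational repressor Eif4ebp1 at 0.59 (standard error 0.098, adjusted p = 0.000268). Rptor, the mTORC1 scaffold, at −0.18 (standard error 0.050, adjusted p = 0.0136), was among the genes that fell. The 3 rises named were larger than the estimate of any ribosomal protein gene.

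Properties that could alter the counts were compared as a description. The median after SNA over both housings was 0.12 both in the 28 genes that hold a small nucleolar RNA gene and in the other 47. It had the same value in the 34 genes with over 50% of their 100-base stretches shared with other transcripts and in the other 41, in the 18 genes with exons on both strands and in the other 57, and with Rpl24 left out.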

How the data were processed

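Libraries were made with the TruSeq mRNA kit from RNA with an integrity number above 7.5 and sequenced as paired ends. The authors aligned the reads to mm10 with TopHat2 2.0.12 and Bowtie2 2.2.3 and counted reads with HTSeq for each gene name, so the deposited count table holds whole reads, not normalized. The deposited FPKM were computed by the authors from the same counts and were used for levels and for an alternative. The counts were normalized by TMM (edgeR 4.0.16, R 4.3.3), filtered with filterByExpr (10 counts, total of 15) over the 4 groups, and tested over all 16238 genes with the quasi-likelihood F test, each pair of groups on its own 6 samples and SNA over both housings (with a housing term) and the interaction on 12. The test was checked on simulated data.

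Genes were placed with GENCODE on GRCm38. Genes named are 16 members chosen for their roles, in each comparison the 5 largest that passed or else the 3 smallest p, the extremes of level and, of each list, up to 3 called per direction with a mean of at least 1 CPM. Rpl15, Rpl28, Rps14, Rps28, the ones listed by range and the genes whose tracts are printed were chosen after their values were seen, as were the pairs of samples singled out. Values of some of these genes were left out of the text. Members and lists were chosen with earlier results of these data known. No 2 replicates agreed within counting error, so each sample counted as 1. Nothing in the labels ties the pools to separate cages. The p-values set group differences against the variation between these samples, each a pool of 2 mice, and not between single animals. An exact permutation test of 3 against 3 cannot go below 0.1.

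The labels give replicate numbers without stating that they pair samples of different groups, and the main fits held no replicate term. Same-numbered samples of SH Sham and EE Sham had correlations of 0.336, 0.128 and 0.134 in expression relative to their group mean. SH Sham replicate 3 and EE Sham replicate 2, which differ in number, had 0.200, so these values do not settle a pairing. Alternatives were edgeR's likelihood ratio test, DESeq2 1.42.0, library size in place of TMM, no filter, 10 counts in every sample, a joint fit of the 12 samples, a block for the replicate number, limma 3.58.1 on log2 of FPKM plus 1 or 0.1, and leaving out each sample. Plots were made with Python 3.11.15 and Matplotlib 3.10.9.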

Additional observations from a re-analysis of the deposited data

Results flagged for a closer look

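Rpl28, a large subunit protein, had estimates of opposite sign after SNA in the 2 housings. Rpl28 was at 105, 118 and 111 CPM in SH Sham, 107, 109.6 and 108 CPM in SH SNA, 87.4, 114 and 94.9 CPM in EE Sham and 112, 109 and 112 CPM in EE SNA. All 3 SH SNA samples lay below the SH Sham mean and all 3 EE SNA samples above the EE Sham mean. In both housings, however, every SNA sample lay within the range of the Sham samples. The change was −0.040 (standard error 0.057, adjusted p = 0.73) in SH and 0.16 (standard error 0.091, adjusted p = 0.359) in EE. The test of the difference itself, the interaction, gave 0.21 (standard error 0.11, unadjusted p = 0.0763, adjusted p = 0.99995), which did not pass. The lowest EE Sham value is that of replicate 1, in which most ribosomal protein genes were low, and 183 exon bases of Rpl28 overlap Ube2s on the other strand.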

How the results depend on the processing

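Which single genes passed depended on the processing, while the direction of the family after SNA did not. Over the alternatives run, the median stayed positive in the 4 comparisons of SNA with Sham and every gene called was higher. With 2 genes called in SH SNA against SH Sham, the count was 0 with all 12 samples in one fit and with limma on either FPKM scale, and 4 with the replicate block. For EE SNA against EE Sham, with 0 called, it was 3 without the filter and 2 with all 12 samples in one fit. In EE SNA against SH Sham, with 10 called, it was 14 with DESeq2, 13 with the likelihood ratio test and 13 without the filter. Fewer passed there with library size only (5), the replicate block (3) and limma (0). Over both housings, with 12 called, it was 18 with the likelihood ratio test, 26 without the filter and 24 with the replicate block. Fewer passed there with library size only (7) and limma (4). The cause was not tested. Of the 14736 to 26122 genes tested in these settings, 1444 to 2475 were called in SH SNA against SH Sham, in either direction. In EE SNA against EE Sham 462 to 1694 of all genes were called, and in EE SNA against SH Sham 1383 to 2849. Over both housings it was 3362 to 4077.

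Leaving out each sample in turn gave 0 to 2 calls in SH SNA against SH Sham, 0 to 9 in EE SNA against EE Sham, 0 to 7 in EE SNA against SH Sham and 4 to 37 over both housings. In the same order, 1207 to 1683, 361 to 1082, 1168 to 2021 and 2962 to 3770 of all 16238 genes were called in either direction. The medians ranged from 0.069 to 0.11, 0.052 to 0.24, 0.12 to 0.18 and 0.076 to 0.16. For EE Sham against SH Sham the median ranged from −0.085 to 0.096, with no call in any setting, and for EE SNA against SH SNA from 0.029 to 0.098, with no call. Where an arm of a fit was left with fewer samples, the spread was taken from all samples in it. Of 500 values of 25 named genes over both housings, 406 kept direction and side of the threshold and 0 changed sign. Rpl12, Rplp0 and Rps15a passed under all 20 alternatives. In every pair of groups except SH Sham with EE Sham, at least 1 same-numbered pair of samples had a correlation under 0.1. The block changed no call in EE Sham against SH Sham, where the median became 0.0092.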

Other observations

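Other lists were measured in the same libraries. Mitochondrially encoded genes took 4.94% to 6.89% of reads per sample, and of the 11 tested none passed over both housings (median log2 fold change 0.060, 0 also at an unadjusted p under 0.05 with edgeR). Neutrophil markers summed to 68.5 to 183 CPM in SH Sham, 115 to 306 in SH SNA, 93.2 to 219 in EE Sham and 149 to 717 in EE SNA, the highest being EE SNA replicate 3. Markers of red blood cells ranged over 114 to 184, 189.6 to 515, 111 to 307 and 175 to 595 CPM in the same order of groups, fibroblast markers over 674 to 769, 667 to 925, 654 to 765 and 819 to 1035 CPM, and satellite glia markers over 2229 to 2425, 2249 to 2552, 1959.5 to 2284 and 2239 to 2409.6 CPM. Lymphocyte markers lay between 40.2 and 63.7 CPM, and markers of dividing cells between 6.08 and 44.1 CPM over all 12 samples. EE Sham replicate 1 was the lowest of the 12 for fibroblast and satellite glia markers. EE SNA replicate 3 was also the highest of the 12 for red blood cell, fibroblast, lymphocyte and dividing cell markers. It is the sample in which 49 of the ribosomal protein genes were highest, and the part of these markers in that was not tested. Skeletal muscle markers reached 749 CPM in an SH SNA sample and were as low as 2.46 CPM in an SH Sham sample.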
